A study of Mus musculus with 4 samples.

Results

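The BCL6 sites described here are the 265 peaks of moderate height in inguinal (subcutaneous) adipocytes that were also found in perigonadal (visceral) adipocytes of the mouse. They were chosen by 2 measured values: a score under a limit that falls between the steps of 15 and 15.8 in the inguinal list, and an overlap of at least 1 bp with a peak of the perigonadal list. The inguinal list held 1785 peaks and the perigonadal list 3956, and 508 inguinal peaks overlapped a perigonadal one. The 243 other shared peaks scored 15.8 or more in inguinal fat and are called tall shared sites, and 1226 inguinal peaks below the limit had no perigonadal partner. Of the 1491 inguinal peaks below the limit, the 265 members are 17.8%, a share that the rule itself sets.

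BCL6 is a zinc finger protein of the BTB/POZ family that silences genes by bringing corepressors to DNA. It is best known from germinal centre B cells and follicular helper T cells, where it holds back differentiation and inflammatory programmes. Its DNA site, with a TTC and a GAA arm, resembles that of the STAT factors, which carry cytokine and growth hormone signals to the nucleus.

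The study mapped BCL6 by chromatin immunoprecipitation and sequencing in C57BL/6 mice of the genotype Adipoq-Cre;Sun1-sfGFP-myc. Adipoq-Cre is active in adipocytes and switches on a myc-tagged nuclear membrane protein, so that magnetic beads against c-myc collect nuclei of adipocytes rather than of the other cells of fat. The fixation was double, 30 minutes in disuccinimidyl glutarate before 10 minutes in 1% formaldehyde, and the antibody was a custom polyclonal one raised in guinea pig to mouse Bcl6. Inguinal and perigonadal fat had 1 BCL6 library each, and their input libraries were not analysed here. With 1 library per depot there is no replicate, so the depots were not tested against each other, and nothing below compares BCL6 levels between them. Age, sex and the number of animals are not given in the sources used here, and no marker of the cell type can be checked in a list of peaks.

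The DNA under a site could be read where it fell in a promoter window of the RefSeq sequence table, build GRCm38.p6, which runs from 250 bases before to 50 bases after a gene start. Of the 265 sites, 5 had at least 100 bp inside such a window. These stretches are shown because they are where the protein's known site can be looked for in the members themselves. Each is printed 5′ to 3′ on the strand of its gene, and capitals mark matches to TTCNNNGAA, a palindromic pattern searched on both strands.

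Igfals promoter, chr17:24878094-24878280, plus strand: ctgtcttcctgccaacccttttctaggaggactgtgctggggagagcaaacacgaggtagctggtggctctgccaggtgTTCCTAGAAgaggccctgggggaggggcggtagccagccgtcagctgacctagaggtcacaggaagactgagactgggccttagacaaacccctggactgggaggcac
Zfp719 promoter, chr7:43579342-43579544, plus strand: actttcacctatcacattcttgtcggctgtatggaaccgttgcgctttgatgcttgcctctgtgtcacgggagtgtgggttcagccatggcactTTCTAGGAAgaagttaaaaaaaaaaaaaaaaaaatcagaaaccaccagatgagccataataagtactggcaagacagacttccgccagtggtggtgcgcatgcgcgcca
Shq1 promoter, chr6:100671232-100671407, minus strand: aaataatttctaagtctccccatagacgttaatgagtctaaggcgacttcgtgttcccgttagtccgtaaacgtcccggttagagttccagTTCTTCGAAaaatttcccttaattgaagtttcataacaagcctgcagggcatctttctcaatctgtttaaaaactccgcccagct
B930025P03Rik promoter, chr8:10882506-10882704, minus strand: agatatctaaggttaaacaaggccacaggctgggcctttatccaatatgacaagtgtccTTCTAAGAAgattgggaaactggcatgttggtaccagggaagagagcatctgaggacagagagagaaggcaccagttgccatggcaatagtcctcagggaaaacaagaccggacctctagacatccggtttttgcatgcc
Lmnb2 promoter, chr10:80918373-80918495, minus strand: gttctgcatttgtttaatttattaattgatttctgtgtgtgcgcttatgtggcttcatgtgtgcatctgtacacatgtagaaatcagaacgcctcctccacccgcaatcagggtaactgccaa

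The pattern TTCNNNGAA was present in 4 of these 5 stretches (80%, exact 95% interval 28.4 to 99.5%), and the Lmnb2 stretch had none. Among inguinal peaks read in the same way it was present in 4 of 13 tall shared sites (30.8%, 9.09 to 61.4%) and in 3 of 22 peaks without a partner (13.6%, 2.91 to 34.9%). The background over all 32817 promoter windows was 8.29%, although these windows of 300 bases are longer than the stretches of peak. The fuller pattern TTCCTNGAA, with up to 1 mismatch, was in 4 of the 5 members, in 10 of the 13 tall shared sites and in 7 of the 22 peaks without a partner, against 25.3% of all windows. This pattern overlaps the first, so the counts are not separate evidence, and with 5 stretches the interval spans most of its possible range. Without a mismatch, TTCCTNGAA was found in the Igfals and Zfp719 stretches, 2 of 5, and in 1.59% of all windows. The same exact pattern was in 3 of the 13 tall shared sites (23.1%) and in 3 of the 22 peaks without a partner (13.6%). The TTCNNNGAA match lay 18 bp from the inguinal and 24 bp from the perigonadal peak centre at Igfals, and 3 and 41 bp from them at Zfp719. At Shq1 these distances were 21 and 46 bp, and at B930025P03Rik they were 34 and 30 bp. A match is a description of these letters and does not show that BCL6 touched them.

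The heights of the members were narrow in inguinal fat, by the rule, and wide in perigonadal fat. The deposited peak score rises in equal steps, which were read as 1 sequenced tag each, 0.752 for inguinal and 0.882 for perigonadal peaks. Inguinal scores lay between 6.77 and 15 (median 11.3), which is 9 to 20 tags. Perigonadal scores of the same sites lay between 7.05 and 52.9 (median 13.2), which is 8 to 60 tags. At the tall shared sites the medians were 21.8 for inguinal and 23.8 for perigonadal peaks. By rank, with ties at the edge all counted, 203 of 265 members (76.6%, Wilson 95% interval 71.2 to 81.3%) had a partner among the tallest 25% of the perigonadal list. That edge fell among peaks of 12 tags, since 180 partners (67.9%) had more than 12. Partners of 12 tags therefore enter both this count and that of the low partners below. At 6 members the partner was among the 100 tallest perigonadal peaks. At the low end, the lower quartile of perigonadal tags was 12 at the members and 20 at the tall shared sites. Of the members' 265 partners, 85 (32.1%) had 12 tags or fewer, against 84.5% of the perigonadal peaks that had no inguinal partner. These intervals cover counting error only, since the reads carry no molecular identifiers and may repeat a molecule, and no second library entered.

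Within the limit, whether an inguinal peak had a partner went with its height. Of peaks with 9 to 11 tags 4.89% were shared (3.63 to 6.57%, 41 of 838). The share was 18.9% at 12 to 14 tags (15.4 to 22.9%, 79 of 418), 58.6% at 15 to 17 tags (50.3 to 66.4%, 82 of 140) and 66.3% at 18 to 20 tags (56.3 to 75%, 63 of 95). Tag by tag, the share was 25% at 14 tags, 40.9% at 15 and 66% at 16, and from 16 to 22 tags it stayed between 59.4 and 81.3%. The score limit, between 20 and 21 tags, therefore lies inside a range of similar shares, and the steep part lies several tags under it. Both values that form this curve belong to the rule, so it describes how the members arose and is not a finding about them.

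**Figure D1:**
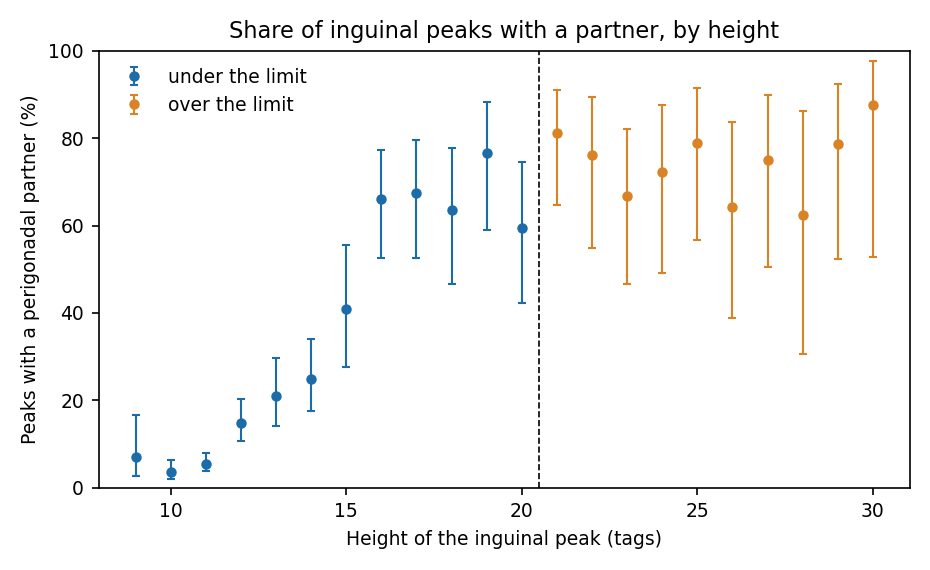
Percentage of inguinal peaks that overlap a perigonadal peak (vertical axis) by inguinal tags per peak (horizontal axis), 1 point per tag number up to 30, with Wilson 95% intervals of counting error as bars and the score limit as a dashed line. The points lie at 25% for 14 tags and 66% for 16 tags, and those from 16 tags on stay at similar heights on both sides of the limit.

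The limit separates sites that are 1 inguinal tag apart. Just inside it, 19 sites tied at an inguinal score of 15 and had perigonadal scores of 7.93 to 35.3, median 14.1. The 5 with the highest perigonadal scores were near Mfsd7c (35.3), Mtmr12 (25.6), Vegfa (22.9), 4930405L22Rik (21.2) and Tlr8 (20.3). Just outside it, 26 shared sites tied at 15.8 and had perigonadal scores of 11.5 to 44.1, median 19.4. Their first 5 were near Grb10 (44.1), Tnip1 (39.7), Sybu (36.1), Ldhal6b (33.5) and C330018D20Rik (27.3). The ranges overlap over most of their length.

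Over all members, the 2 lists ranked sites in a loosely similar order. This order was nearly absent among members with more than 12 tags in both lists, where Spearman's rho was 0.0641. Spearman's rho between the paired scores was 0.31 over the 265 members and 0.63 over the 243 tall shared sites, and on log2 scores Pearson's r was 0.3 for the members and 0.75 for the tall shared sites. The members span a short range of inguinal scores by choice, and all sites of a list come from 1 library, so these are descriptions. By inguinal tags the median perigonadal score was 10.6 at 9 to 11 tags, 12.3 at 12 to 14, 14.6 at 15 to 17 and 15 at 18 to 20. The highest perigonadal score in each of these bands was 29.1, 43.2, 52.9 and 35.3, so even the lowest inguinal peaks included partners well above the members' perigonadal median of 13.2.

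**Figure D2:**
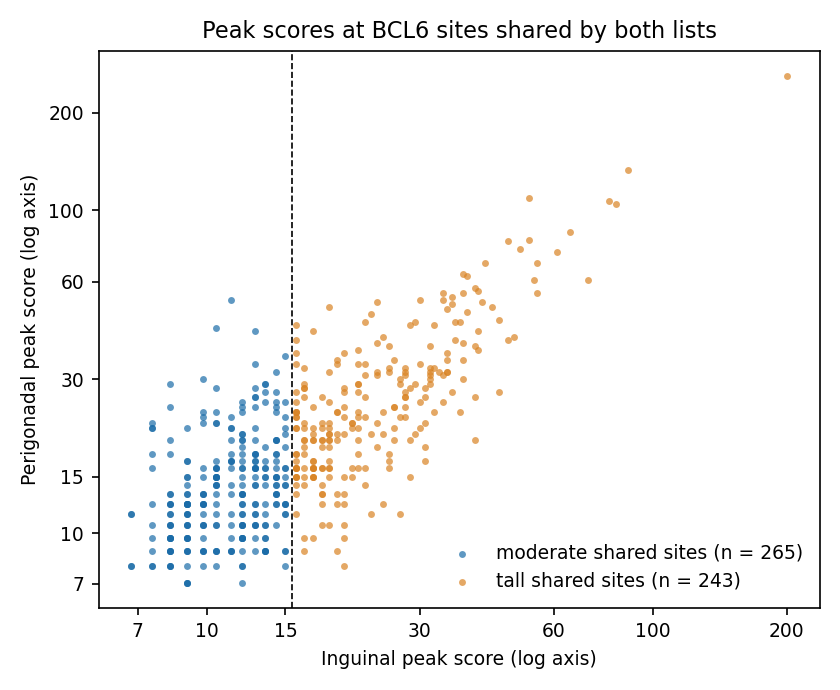
Perigonadal peak score (vertical, log axis) against inguinal peak score (horizontal, log axis) for the 265 moderate and the 243 tall shared sites, 1 point per site. The moderate sites spread from 7.05 to 52.9 on the perigonadal axis to the left of the dashed limit, and the 2 classes meet there without a gap.

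The members that stood highest in perigonadal fat lay mostly more than 10 kb from a promoter, as most members did. Of all 265 members, 103 lay at 10 to 50 kb, 33 at 50 to 100 kb and 63 farther away. The member with the highest perigonadal score was an intergenic site at chr11:52551522-52551724, 155.2 kb from the start of 9530068E07Rik, a gene whose product is little described. Its inguinal score was 11.3 (exact Poisson 95% interval of its tags 6.32 to 18.6) and its perigonadal score 52.9 (40.4 to 68.1), rank 23 of 3956. The next lay in intron 3 of 9 of Vdr, the receptor for vitamin D, at chr15:97878857-97879059, 29.3 kb into the gene. It scored 10.5 (5.76 to 17.7) in the inguinal list and 43.2 (32 to 57.1) in the perigonadal list. The third was 11 kb upstream of Xpnpep1, an aminopeptidase, at chr19:53049538-53049740, with scores of 12.8 and 42.3. Each list is scaled to its own library, so such a pair does not show a difference in BCL6 between depots.

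The other sites among the 15 highest in perigonadal fat had nearest genes of varied kinds, some of them far away. A site 33.6 kb upstream of Insig1, an endoplasmic reticulum protein that holds back sterol-driven lipid synthesis, scored 13.5 in inguinal and 29.1 in perigonadal fat. A site 529 kb upstream of Pappa, a protease that frees insulin-like growth factor from its binding proteins, scored 9.78 and 30. Selenop encodes the selenium carrier of plasma, and a site 7.74 kb upstream of it, inside an MLT1B long terminal repeat, scored 12.8 and 26.4. The Ghr site described below tied with it at both scores and is not counted among the 15. The Mfsd7c site, in intron 1 of 9 of this membrane transporter gene and inside an LTR31 repeat, scored 15 and 35.3. Gnai1, an inhibitory G protein subunit, had a site 126.2 kb away with scores of 12.8 and 33.5. Pld1, a phospholipase D, had an intronic site with 14.3 and 31.7. The remaining 6 were nearest to Fam43a, Tmem2, Tmem30c, Rtn4rl1, 2010010A06Rik and B930025P03Rik, with inguinal scores of 8.27 to 14.3 and perigonadal scores of 27.3 to 29.1. B930025P03Rik, a non-coding RNA gene, is the single promoter site in this group, 153 bp upstream of its start.

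The paired peaks were close together but less so than at tall sites. The median distance between the inguinal and the perigonadal peak centre was 32 bp (quartiles 18 to 61 bp) at the members and 25 bp (11 to 43 bp) at the tall shared sites. Centres lay within 25 bp of each other at 99 of 265 members (37.4%, 31.8 to 43.3%) and at 124 of 243 tall shared sites (51%, 44.8 to 57.3%). Within 50 bp there were 182 members (68.7%, 62.9 to 74%) and 203 tall shared sites (83.5%, 78.4 to 87.7%). The perigonadal centre lay at the lower coordinate at 129 members and at the higher one at 135, with a median of 1 bp, so there was no shift to one side. Distances were longest where tags were fewest, with a median of 50 bp at 9 to 11 inguinal tags and of 26 bp at 18 to 20. The farthest pair was the one in an intron of Esr1, whose centres were 182 bp apart, where the peak widths allow at most 193 bp.

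**Figure D3:**
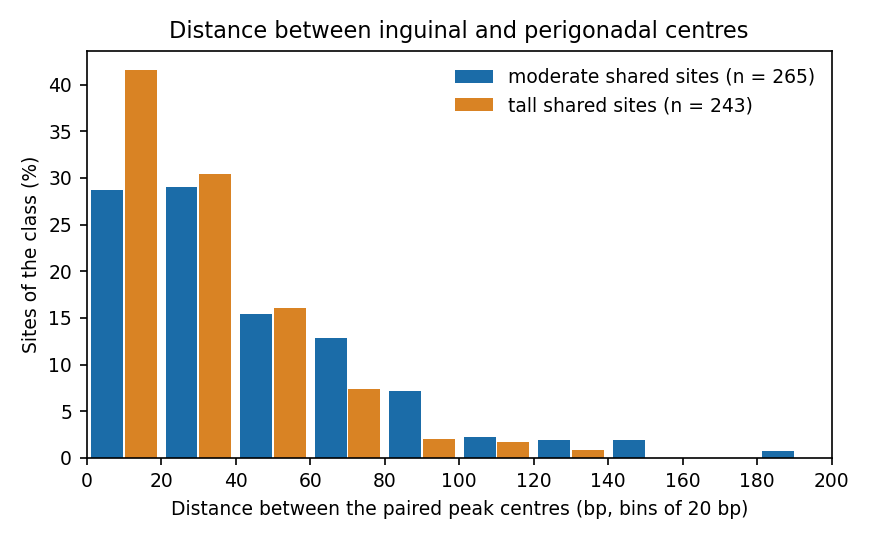
Percentage of the sites of each class (vertical axis) by distance in bp between the inguinal and the perigonadal peak centre, in bins of equal width (horizontal axis). Bars stand for moderate and for tall shared sites. Counted from the distances themselves, 68.7% of the moderate sites and 83.5% of the tall shared sites lie within 50 bp.

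Peak shape differed little between the members and the peaks without a partner. The deposited focus ratio, a fraction that is highest when tags lie as they should around a peak centre, had an inguinal median of 0.81 at the members (quartiles 0.75 to 0.852), 0.861 at the tall shared sites and 0.8 at peaks without a partner. Among inguinal peaks of more than 12 tags the medians were 0.81 for 193 members and 0.812 for 251 peaks without a partner. In the perigonadal list the medians were 0.833 for the members and 0.86 for the tall shared sites. The inguinal medians of members and of peaks without a partner thus lay within 0.01 of each other, and the step was to the tall shared sites.

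The members lay far from gene starts. Introns held 110 of them (41.5%, 35.7 to 47.5%), of which 35 were in a first intron, and intergenic DNA held 132 (49.8%, 43.8 to 55.8%). The remainder were 9 promoters, 6 gene ends, 4 stretches of 3′ UTR, 2 coding exons and 2 exons of non-coding transcripts. The median distance to the nearest annotated promoter was 32.6 kb at the members, 20.9 kb at the tall shared sites and 30.7 kb at peaks without a partner. By distance, 13 sites were within 1 kb of a promoter, 53 at 1 to 10 kb, 103 at 10 to 50 kb, 33 at 50 to 100 kb and 63 farther away. Upstream of the nearest start lay 119 sites (44.9%).

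Compared with the tall shared sites, fewer members were at promoters and more were remote. Within 1 kb of a promoter lay 4.91% of the members (2.89 to 8.21%) and 10.3% of the tall shared sites (7.07 to 14.8%), a difference of -5.38 percentage points (Newcombe 95% interval -10.3 to -0.767). Beyond 100 kb lay 23.8% of the members (19.1 to 29.3%) and 13.2% of the tall shared sites (9.49 to 18%), a difference of 10.6 points (3.85 to 17.2). Intergenic DNA held 49.8% of the members and 39.9% of the tall shared sites, a difference of 9.89 points (1.23 to 18.3). First introns held 13.2% of the members and 19.8% of the tall shared sites, a difference of -6.55 points (-13.1 to -0.0928). Against peaks without a partner, the intron share differed by -7.1 points (-13.5 to -0.476). Among inguinal peaks of more than 12 tags that difference turned round, with 43.5% of the members and 38.6% of the peaks without a partner in introns, 4.88 points (-4.29 to 14). The promoter share differed from that of peaks without a partner by -1.46 points (-3.97 to 2.07), and by -4.9 points (-9.7 to 0.101) above 12 tags, where it was 4.66% and 9.56%; both intervals include 0. In all 56 such differences were computed over 31 kinds of position, 14 had an interval that leaves out 0, and the intervals were not adjusted for their number.

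Annotated repeats held a smaller share of the members than of the unshared peaks. Repeats held 31 members (11.7%, 8.37 to 16.1%), 25 tall shared sites (10.3%, 7.07 to 14.8%) and 315 peaks without a partner (25.7%, 23.3 to 28.2%). The members' difference was 1.41 points from the tall shared sites (-4.16 to 6.89) and -14 points from peaks without a partner (-18.2 to -8.97). The repeats at members were 12 LINE, 11 LTR, 4 SINE and 3 DNA elements and 1 simple repeat. LTR elements held 4.15% of the members and 9.3% of the peaks without a partner, a difference of -5.15 points (-7.67 to -1.68), and SINE elements held 1.51% and 6.53%, a difference of -5.02 points (-6.8 to -2.39). Height moves with this result, because peaks without a partner are lower. Among inguinal peaks of more than 12 tags, 18 of 193 members (9.33%) and 46 of 251 peaks without a partner (18.3%) were in repeats, a difference of -9 points (-15.2 to -2.46). At that height the LTR difference was -4.06 points (-8.29 to 0.295), an interval that includes 0, and the SINE difference was -3.47 points (-6.69 to -0.496). Above 12 tags the classes still differ in height, since 25% of peaks with 14 tags but 66% of those with 16 had a partner. By band, repeats held 14.6% of the members and 28.1% of the unshared peaks at 9 to 11 tags, 13.9% and 23.3% at 12 to 14, 12.2% and 13.8% at 15 to 17, and 6.35% and 12.5% at 18 to 20. The Wilson intervals of the 2 classes overlapped in every band, for example 6.88 to 28.4% and 25.1 to 31.3% at 9 to 11 tags. The handling of reads that match several copies of a repeat is not stated in the sources, and its part in the result was not tested.

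**Figure D4:**
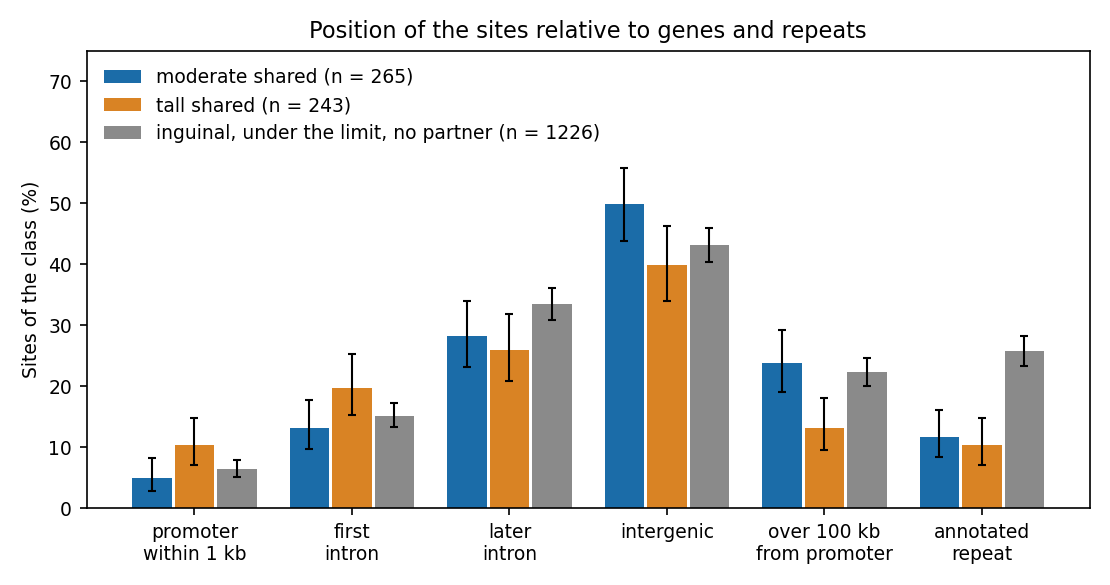
Percentage of sites in each kind of position for moderate shared sites, tall shared sites and inguinal peaks without a partner, with Wilson 95% intervals of counting error. Repeats hold 11.7% of the moderate sites and 25.7% of the peaks without a partner, and sites within 1 kb of a promoter are 4.91% of the moderate and 10.3% of the tall shared sites.

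At promoters of protein-coding genes the members were few, and they are given in full. Of the 13 sites within 1 kb of a promoter, 9 belonged to protein-coding genes. Btd, which encodes the biotin-recycling enzyme biotinidase, had a site 668 bp downstream of its start with an inguinal score of 15 and a perigonadal score of 11.5. Hist1h2be, a histone H2B gene, had a site at its gene end with scores of 14.3 and 10.6. Sipa1l2, related to GTPase-activating proteins, had one 836 bp upstream with 12 and 15.9. The site 229 bp upstream of Lmnb2, which encodes the nuclear lamina protein lamin B2, had 12 and 7.93. Ccnd2 encodes cyclin D2, which drives entry into the cell cycle, and its site 913 bp upstream had 10.5 and 10.6. The lowest inguinal scores of this group were at Igfals (9.03, with a perigonadal score of 14.1), Shq1 (8.27 and 11.5), Cxcl10 (8.27 and 8.82) and Zfp719 (8.27 and 8.82). Igfals encodes the acid-labile subunit that keeps insulin-like growth factors in the blood, Shq1 an assembly factor for small nucleolar RNA-protein particles, Cxcl10 a chemokine induced by interferon and Zfp719 a zinc finger protein. The other 4 promoters were non-coding: B930025P03Rik (13.5 and 27.3), Mir148b (11.3 and 16.7), Mir7671 (12 and 9.7) and Gm11729 (10.5 and 8.82).

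A site was assigned to a protein-coding gene where that gene's promoter was the nearest annotated one and lay within 50 kb. By this rule 150 sites were assigned to 148 genes, 0.676% of the 21900 protein-coding genes of the gene table. Of the other 115 sites, 40 had a nearest promoter that is not protein-coding and 75 were beyond 50 kb. Nearness does not show that BCL6 at a site acts on the gene. Over 11 lists of genes for BCL6 biology and fat, 10 of 215 genes (4.65%) had a member, and 11 had a tall shared site. The lists were drawn up with earlier results of these data known, so their share is given without a test.

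Genes of growth hormone and insulin signalling were in reach of 3 members. Ghr, the growth hormone receptor, whose signal runs through JAK2 and STAT5, had a site 35.1 kb upstream at chr15:3618371-3618573 with scores of 12.8 in inguinal and 26.4 in perigonadal fat. With Igfals it made 2 of 20 genes of the growth hormone, IGF, JAK and STAT list. Tall shared sites lay near 3 others of that list, Prlr, Socs2 and Cish. Insr, the insulin receptor, had a site 34.6 kb upstream at chr8:3314113-3314315 with scores of 13.5 and 15.9, the single hit among 22 insulin signalling genes. Tall shared sites of that list were near Akt1 and Grb10.

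Chemokine genes were the inflammatory hits. Of 22 genes for inflammation and NF-kappaB, Cxcl5 (9.03 and 8.82, 5.32 kb upstream), a chemokine for neutrophils, and Cxcl10 had a member. Both lay at or under the members' lower quartile in each list, 9.03 in inguinal and 10.6 in perigonadal fat. Cxcl9, another interferon-induced chemokine gene, had a member in its 3′ UTR, 26.4 kb from the Cxcl10 site, with scores of 12 and 7.05. The tall shared site of this list was near Nfkbia, an inhibitor of NF-kappaB.

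Matrix genes gave 2 of 20. Sparc, a collagen-binding matrix protein, had a member 47.8 kb away with scores of 12.8 and 21.2, and 2.57 kb from it lay a tall shared site with 20.3 and 28.2. Col4a2, a chain of basement membrane collagen, had one with 10.5 and 15, and its partner gene Col4a1 had an intronic one with 12 and 11.5 that lay 70.3 kb from its promoter, beyond the limit for assignment. Tall shared sites lay near Col6a2, Sparc and Thbs1.

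Adipocyte and lymphocyte genes added 3. Klf15, a transcription factor of adipocyte differentiation and of glucocorticoid responses, had a site in intron 2, 8.78 kb from the promoter, with scores of 14.3 and 15, and was 1 of 20 adipocyte identity genes. Of 20 BCL6 targets known in lymphocytes, Ccnd2 and Myc had a member. Myc, a growth-promoting transcription factor, had its site 1.71 kb upstream with 9.03 and 13.2. Of all protein-coding genes 0.676% had a member assigned, so absence from lists this short is not read as a result about the members. No member lay near any of 18 clock genes, 22 fatty acid synthesis genes, 18 fatty acid oxidation and thermogenesis genes, 16 corepressor and histone deacetylase genes or 20 markers of other cells. The deacetylase gene Hdac6, which is not in that list, had a member 8.86 kb upstream with scores of 9.03 and 12.3. In 2 of these lists a tall shared site did, near Cry1 and near Elovl5. Acsl4, which activates long fatty acids, was the nearest gene to a member 91.3 kb away with scores of 9.03 and 9.7.

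**Figure D5:**
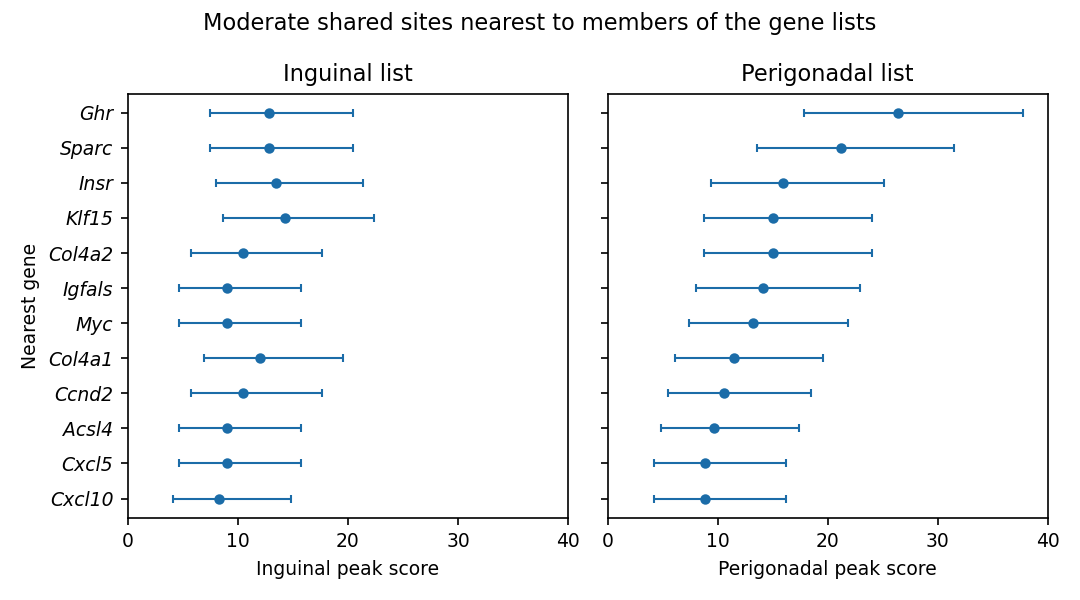
Peak scores (horizontal axes) of the members nearest to genes of the lists, Col4a1 and Acsl4 beyond 50 kb included, in the inguinal list (left) and the perigonadal list (right), with exact Poisson 95% intervals of their tags as bars. Inguinal scores run from 8.27 at Cxcl10 to 14.3 at Klf15 with overlapping bars, and perigonadal scores from 8.82 at Cxcl5 and Cxcl10 to 26.4 at Ghr, whose bar lies above those of both chemokine genes.

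Most members had no other shared site within 100 kb. Another shared site of either class lay within 20 kb of 5 members (1.89%) and within 50 kb of 20 (7.55%). Within 100 kb of such a site lay 32 members (12.1%). Whether these shares are lower or higher than those of evenly spaced sites or of other peaks was not tested. Of the assigned genes 2 had a pair of members. Ercc5, an endonuclease of nucleotide excision repair, had one 11 kb upstream with scores of 15 and 14.1 and one in exon 8 with 12 and 15.9. Aldh1a3, which makes retinoic acid, had one 15.6 kb upstream with 11.3 and 22.9 and one 37.7 kb upstream with 9.03 and 10.6. A moderate and a tall shared site were both assigned to 2 genes, Sparc and Sybu. Sybu links vesicles to the motor kinesin, and its member scored 9.03 and 15 beside tall shared sites with 18.1 and 13.2 and with 15.8 and 36.1.

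At the bottom of the perigonadal range, 4 members had a score of 7.05 and 13 a score of 7.93. The 4 lowest were nearest to Cxcl9, Pabpc2, Slc38a4, an amino acid transporter, and Phldb2, with inguinal scores of 12 at Cxcl9 and 9.03 at the other 3. The 13 sites at 7.93 were nearest to Pdcd4, Lmnb2, Ofcc1, 3110043O21Rik, Itsn1, Fam53a, Dapk1, Ccdc80, Ptpru, BC051665, Usp46, Mir6368 and Triqk, with inguinal scores between 6.77 at Mir6368 and Triqk and 15 at Pdcd4. In all, 144 members (54.3%) had more than 12 tags in both lists and 36 (13.6%) had 12 or fewer in both.

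The members in this paragraph were chosen after their values were seen, for the known roles of their nearest genes. Vegfa, the angiogenic growth factor, had one 21.1 kb upstream with scores of 15 and 22.9. Esr1, the oestrogen receptor alpha gene, had one in intron 3 of 8, 66.1 kb from the promoter and so beyond the limit for assignment, with 14.3 and 15.9, 33.1 kb from a tall shared site of the same gene with 39.9 and 19.4. Klb encodes beta-Klotho, the coreceptor of the hormone FGF21, and had one in intron 1, 16.3 kb from the promoter, with 9.78 and 11.5. Scarb1, a receptor for high-density lipoprotein, had one in intron 1, 8.63 kb from the promoter, with 8.27 and 9.7. Egln3 and Ddit4, both induced by low oxygen, had sites 39.6 kb away with 14.3 and 19.4 and 35.5 kb away with 12.8 and 17.6. Transcription factor genes among them were Foxp1 (9.78 and 13.2, 2.46 kb away), Mitf (9.03 and 10.6, 1.04 kb), Tcf7l1 (10.5 and 15, 3.91 kb) and Meis2 (13.5 and 10.6, 36.2 kb).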

How the data were processed

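The data are the peak lists of 1 BCL6 library from inguinal and 1 from perigonadal fat, on mm10. Per the submitters' processing notes the authors used Bowtie 1.2 and HOMER. Per the file headers the lists are HOMER annotations, the inguinal header names a false discovery rate of 0.001 and the perigonadal header names no threshold, so the lists may have been cut differently. Pooling of libraries is not stated.

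The deposited peak score is the authors' value. Within each list 100% of scores were whole multiples of a step, 0.752 inguinal and 0.882 perigonadal, within the rounding of the deposited values. The step was read as 1 tag. The total behind the scaling is not given, so library depth is unknown. The deposited focus ratio is a fraction, and distances to promoters and positions are also the authors'. Coordinates are as deposited.

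Overlap, shares with Wilson 95% intervals, differences with Newcombe intervals, exact Poisson intervals of tags and correlations were computed with Python 3.11.15, pandas 2.3.3 and SciPy 1.17.1, and the scripts were tested on simulated data. No p-value is given. Gene types and promoter sequences came from RefSeq tables of GRCm38.p6, and all 265 nearest genes matched by Entrez number. The planned motif search over whole peaks was replaced by one over promoter windows, since no genome was used.

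The text names the 15 members with the highest and the 5 with the lowest perigonadal scores, ties included, members within 1 kb of a promoter, genes of the 11 lists, genes with several members and the 5 shared sites on each side of the limit. Others are said to be chosen after their values were seen. The members and lists were chosen with earlier results of these data known. Alternatives were the overlap rule, the score limit, a minimum of tags, repeats, chromosomes, list length and the distances to promoters. The comparison above 12 inguinal tags was added after seeing the data.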

Additional observations from a re-analysis of the deposited data

How the results depend on the processing

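Over the 14 settings tried, each applied to the results it bears on, most values stayed within 1.5 times (counts) or within counting error (shares) of the reported value. The share of inguinal peaks below the limit that were shared, 17.8%, was 12.2% where centres had to lie within 50 bp, 10.6% with a score limit of 12, 22.2% with a limit of 20, 32.4% for peaks of more than 12 tags in both lists and 14.9% with the perigonadal list held to the 1785 peaks of the inguinal list. The 265 sites became 138 with the limit of 12 and 144 with more than 12 tags. The median distance between centres was 23.5 bp under the 50 bp rule, which caps it, and 37.5 bp with the limit of 12. Spearman's rho was 0.19 under the 50 bp rule, 0.44 with the limit of 20 and 0.0641 with more than 12 tags. The 148 genes became 78 with the limit of 12, 79 with more than 12 tags and 58 within 10 kb, and the 10 list genes became 6, 5 and 6. With the limit of 12 the growth hormone and matrix lists had 1 gene each and the insulin and adipocyte lists 0, while with the limit of 20 the insulin list had 2 and the fatty acid synthesis list 1. With more than 12 tags the growth hormone list had 1 and the inflammation and lymphocyte lists 0. Within 10 kb the growth hormone list had 1 and the insulin and matrix lists 0, and within 100 kb the fatty acid synthesis list had 1. The promoter share was 2.78% with more than 12 tags, 1.89% within 500 bp and 16.6% within 5 kb. The perigonadal focus ratio had a median of 0.846 with more than 12 tags. Fewer peaks and narrower windows lower the counts by construction, and the cause of the other shifts was not tested. Of the differences from peaks without a partner, recomputed above 12 inguinal tags after seeing the data, that of introns reversed, from -7.1 to 4.88 points, and that of LTR elements, -5.15, became -4.06 with an interval that includes 0. Those of repeats (-14 and -9) and SINE elements (-5.02 and -3.47) kept their sign, with intervals that leave out 0. That of promoters (-1.46 and -4.9) kept its sign, but both of its intervals include 0. Against the tall shared sites, the promoter difference was also computed at 500 bp (-6.34), and the over 100 kb, intergenic and first intron differences under no alternative. Motif windows of 100 bp and whole peaks were not run. No paired analysis was possible because each depot had 1 library, and for the same reason no library could be left out. Score steps are single tags, so neighbouring scores cannot be told apart, and the lists may have been called at different thresholds, which would limit what absence from a list shows.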

Other observations

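The share of inguinal peaks below the limit that had a perigonadal partner was uneven over chromosomes. On chromosome X it was 7 of 12 (58.3%, Wilson 95% interval 32 to 80.7%), on chromosome 15 it was 23 of 66 (34.8%, 24.5 to 46.9%), and on chromosome 2 it was 8 of 109 (7.34%, 3.77 to 13.8%). These were picked from 21 chromosomes after their values were seen. Both values behind this share belong to the rule, so it describes how the members arose. The heights of the peaks on each chromosome were not compared. The 7 members on X made up 2.64% of the members, against 0.412% of the tall shared sites and 0.408% of the peaks without a partner. They were nearest to Tlr8 (15 and 20.3), Rai2 (7.52 and 17.6), Gm6268 (7.52 and 15.9), Hdac6 (9.03 and 12.3), Rgag4 (9.03 and 12.3), Chrdl1 (9.03 and 11.5) and Acsl4 (9.03 and 9.7), with the inguinal score first in each pair. Tlr8 is a sensor of single-stranded RNA, Hdac6 a cytoplasmic deacetylase and Chrdl1 an antagonist of bone morphogenetic proteins.

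The nearest annotated promoter belonged to a microRNA gene at 8 of the 265 members. This is not particular to the members, as tall shared sites also lay nearest to microRNA genes. They were near Mir7212 (52.7 and 109.3), Mir6541, Mir6343, Mir28c, Mir214, Mir3099, Mir8108, Mir483 and Mir6953. The share over all peaks was not computed, so the count is not read as a trait of the members. Of the 8 members, the tallest in the perigonadal list was near Mir6903 (14.3 and 24.7), followed by Mir3067 (12.8 and 19.4), Mir138-1 (12.8 and 17.6), Mir148b (11.3 and 16.7) and Mir467h (12.8 and 16.7). Of these 8, the sites of Mir148b and Mir7671 lay within 1 kb of the microRNA's promoter.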
